A study of Mus musculus with 9 samples.

Results

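The 7 mitochondrially encoded mRNAs described here were followed through a time course of asporin (ASPN) treatment in MyC-CaP cells, a mouse prostate cancer cell line. They are mt-Nd1, mt-Nd2, mt-Nd4, mt-Nd5 and mt-Nd6 of respiratory complex I, mt-Cytb of complex III and mt-Co1 of complex IV, and they are 7 of the 15384 protein-coding genes of the count table and 7 of its 13 mitochondrial genes. They were chosen by their high counts at time 0, so their levels at time 0 and the comparisons with time 0 are a description. The test of their levels is the comparison of 24 with 12 hours, whose counts did not enter the rule, although the members were chosen with earlier results of these data known. The lowest count of a chosen gene in a library of time 0 was 49605 (mt-Nd6), and the highest counts just outside the choice were 3441 for mt-Atp6 and 855 for mt-Co3, each in a single library, and 230 for mt-Co2. MyC-CaP is a single cell line, derived from a prostate tumor of a mouse that carries a MYC transgene. All 9 libraries came from such cells after 6 to 12 hours without serum and calcium, and the sample labels name ASPN as the treatment of all of them. The libraries were 3 at time 0, 3 at 12 hours and 3 at 24 hours with 100 ng/mL recombinant mouse ASPN, a secreted proteoglycan of the tumor stroma. No library without ASPN was analysed here at 12 or 24 hours, so ASPN and the hours in culture cannot be told apart.

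Mitochondrial DNA is a small circle that codes for a few hydrophobic core subunits of the respiratory chain, ribosomal RNAs and the transfer RNAs that the organelle needs for its own translation. The polymerase POLRMT, with the factors TFAM and TFB2M, copies each strand as a long precursor, and the mRNAs are released by cutting out the transfer RNAs that lie between them. Nearly all mitochondrial mRNAs come from one precursor and are called heavy-strand genes here, whereas ND6 is read from the opposite strand and is called the light-strand gene. Short poly(A) tails are added by MTPAP, and for several mRNAs the tail completes the stop codon. ND6 is the exception in many mammalian cells and carries little or no tail. Every other subunit of these complexes is made from nuclear genes, so each complex needs both sets of transcripts.

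The libraries held 41881191 to 52993821 counts (median 44779129), so that 3 counts correspond to 0.0566 to 0.0716 CPM, the counts of a gene scaled to a common library size. Counts of the same time differed by more than sampling noise between each pair of libraries. The TMM scaling factors were 1.04 to 1.07 at time 0 and 12 hours and 0.898 to 0.911 at 24 hours. The prostate marker Hoxb13 was at 71.8 ± 3.45 CPM at time 0 and 96.6 ± 6.69 CPM at 24 hours (SD, n = 3). Of 5 epithelial markers, Krt8 was at 25.5 ± 1.08 CPM at time 0 and 38.1 ± 5.25 CPM at 24 hours. Krt18 was at 0.234 ± 0.0709 CPM at time 0 and 0.414 ± 0.104 CPM at 24 hours and was called higher at 24 than at 12 hours, and Epcam, Cdh1 and Cldn7 were at or below 0.0912 CPM at every time. The fibroblast marker Pdgfra was at 13.2 ± 0.586 CPM at time 0 and 9.27 ± 0.595 CPM at 24 hours. Dcn, another one, was at 0.181 ± 0.0415 and 0.419 ± 0.21 CPM and was called higher at 24 hours than at time 0, and the endothelial and immune markers of the table were at or below 0.636 CPM at every time. These shifts accompanied the results below and their part in them was not tested.

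Base composition separated the light-strand gene from the heavy-strand ones. The messages of the 6 heavy-strand genes held 23.8% to 27.8% C and 7.996% to 16.1% G, and that of mt-Nd6 held 5.97% C and 28.1% G. This is visible in the first 60 bases of the messages, from GENCODE M21 transcripts (GRCm38), where capitals mark the start codon. mt-Nd6 and its neighbor mt-Cytb, which lie on either side of the switch between strands, are shown with mt-Nd2 and mt-Co1, the heavy-strand genes with the largest and the smallest fall below:
mt-Nd6, chrM:14011-14070, minus strand: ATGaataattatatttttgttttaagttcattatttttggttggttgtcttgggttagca
mt-Cytb, chrM:14145-14204, plus strand: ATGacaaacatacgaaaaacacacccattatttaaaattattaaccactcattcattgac
mt-Nd2, chrM:3914-3973, plus strand: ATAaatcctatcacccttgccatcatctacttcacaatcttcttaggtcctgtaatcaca
mt-Co1, chrM:5328-5387, plus strand: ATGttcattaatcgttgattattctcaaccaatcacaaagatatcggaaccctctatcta

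The genes carry no introns and lie close together. mt-Nd1 (ENSMUSG00000064341.1) spans positions 2751 to 3707 of chromosome M, mt-Nd2 (ENSMUSG00000064345.1) 3914 to 4951, mt-Co1 5328 to 6872, mt-Nd4 10167 to 11544, mt-Nd5 11742 to 13565, mt-Nd6 13552 to 14070 and mt-Cytb 14145 to 15288. The ends of mt-Nd5 and mt-Nd6 share 14 bases on opposite strands, and the mt-Nd6 message is the shortest of the 7 at 519 bases. The last 30 bases of both messages are shown because reads over this overlap cannot be assigned without strand. The strand setting of the counting is not given in the sources used here. If strand was not used, reads of the opposite strand anywhere over mt-Nd6 would also count as mt-Nd6. Its counts may thus not all be light-strand message, which was not tested. Capitals mark the shared bases, which end in the stop codon TAA on either strand:
mt-Nd5, chrM:13536-13565, plus strand: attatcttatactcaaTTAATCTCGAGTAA
mt-Nd6, chrM:13552-13581, minus strand: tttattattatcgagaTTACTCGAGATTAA

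A pair of the messages ends without a full stop codon. mt-Nd4 (1378 bases) and mt-Cytb (1144 bases) close on a single T that the poly(A) tail extends to TAA, and the other 5 members end in a complete TAA or TAG. In the ends below the capital marks that last base:
mt-Nd4, chrM:11515-11544, plus strand: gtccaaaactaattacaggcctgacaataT
mt-Cytb, chrM:15259-15288, plus strand: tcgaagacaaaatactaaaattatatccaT

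At time 0 and at 12 hours the 7 mRNAs together took a large part of each library. Their share of all counts was 2.66%, 2.60% and 2.699% in the 3 libraries of time 0 and 2.85%, 2.77% and 2.63% at 12 hours. At 24 hours it was 0.113%, 0.163% and 0.203%, and the mean share was 17.2-fold lower than at 12 hours. In sequencing of bulk RNA, fewer mitochondria, a smaller part of the cells with these messages and less of each message per cell cannot be told apart.

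The first complex I members, mt-Nd1 and mt-Nd2, code for hydrophobic subunits of the arm of the complex that sits in the membrane, and they were the members with the lowest levels at 24 hours relative to 12 hours. mt-Nd1 was at 2396, 2415 and 2540 CPM at time 0, at 2557, 2486 and 2363 CPM at 12 hours and at 28.7, 49.1 and 63.6 CPM at 24 hours. mt-Nd2 was at 1568, 1513 and 1584 CPM at time 0, at 1725, 1635 and 1495 CPM at 12 hours and at 19.2, 26.8 and 31.1 CPM at 24 hours. Both stood far below the range of the earlier libraries at 24 hours, at 1.91% and 1.59% of their mean level at 12 hours.

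mt-Nd4 and mt-Nd5 code for the pump-like subunits toward the tip of that arm. mt-Nd4 was at 1591, 1572 and 1640 CPM at time 0, at 1742, 1672 and 1567 CPM at 12 hours and at 40.9, 67.0 and 87.8 CPM at 24 hours. mt-Nd5 was at 3810, 3544 and 3682 CPM at time 0, at 4014, 3921 and 3705 CPM at 12 hours and at 211.2, 248.3 and 278.0 CPM at 24 hours. The 24-hour libraries kept 3.93% of the 12-hour level of mt-Nd4 and 6.34% of that of mt-Nd5, and did not overlap with the earlier ones.

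mt-Nd6, the light-strand gene, codes for a small membrane subunit of complex I that is needed for its assembly. It was at 1151, 1063 and 1103 CPM at time 0, at 1242, 1206 and 1095 CPM at 12 hours and at 157.0, 163.0 and 174.2 CPM at 24 hours. Its 24-hour level was 13.9% of that at 12 hours, the largest share left among the 7, and the 3 libraries of 24 hours were within 1.11-fold of each other.

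Outside complex I, mt-Cytb codes for cytochrome b, the catalytic membrane subunit of complex III, and mt-Co1 for the subunit of cytochrome c oxidase that holds its oxygen-binding site. mt-Cytb was at 5078, 4890 and 5123 CPM at time 0, at 5502, 5294 and 4927 CPM at 12 hours and at 175.3, 295.9 and 371.4 CPM at 24 hours. mt-Co1 was at 10082, 9337 and 9722 CPM at time 0, at 10359, 10433 and 10052 CPM at 12 hours and at 606.2, 937.3 and 1258 CPM at 24 hours. The 24-hour levels were 5.36% and 9.08% of those at 12 hours.

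**Figure D1:**
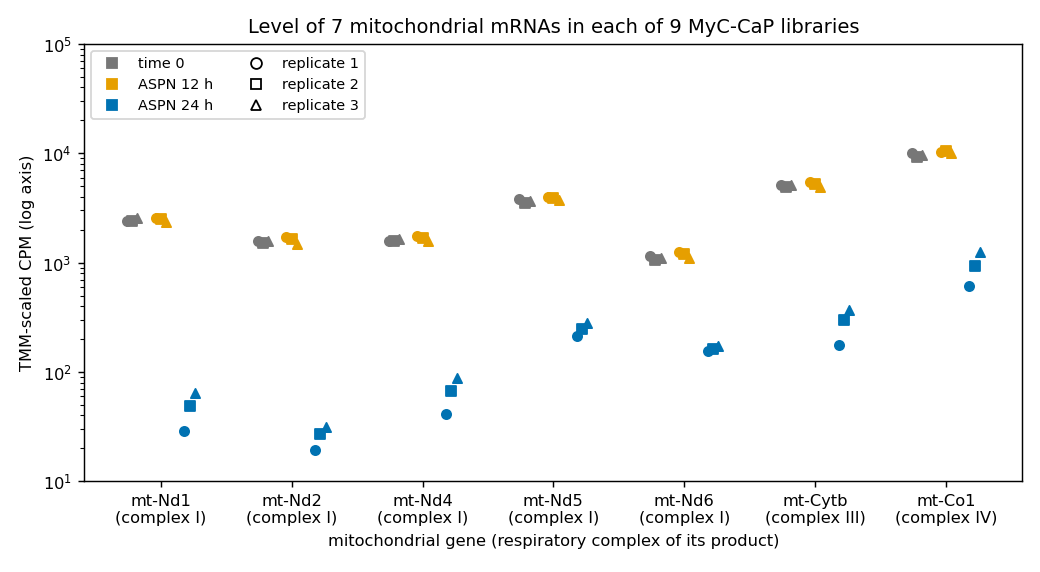
Level of each of the 7 mitochondrial mRNAs (TMM-scaled CPM, log axis) in each library, with 3 libraries per time (colors) and replicate numbers as symbols. The libraries of time 0 and 12 hours lie together for each gene, and all 3 libraries of 24 hours lie below them, from 19.2 CPM for mt-Nd2 to 1258 CPM for mt-Co1.

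The libraries of 24 hours differed among themselves in a shared direction. Replicate 1 was the lowest and replicate 3 the highest for all 7 members. The highest library exceeded the lowest by 2.22-fold for mt-Nd1, 2.15-fold for mt-Nd4, 2.12-fold for mt-Cytb and 2.07-fold for mt-Co1. The spread was smaller for mt-Nd2 (1.62-fold), mt-Nd5 (1.32-fold) and mt-Nd6 (1.11-fold). At 12 hours the same quantity was between 1.04-fold (mt-Co1) and 1.15-fold (mt-Nd2).

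To ask whether the messages had moved by 12 hours, the libraries of 12 hours were compared with those of time 0, which also chose the members by their level, so that the values are a description. None of the 7 members was called by edgeR's quasi-likelihood test, beside 1.60% of the 11410 genes tested (a call, here and below, needed 1.5-fold or more and an adjusted p within 0.05). Their log2 fold changes were between 0.01 (SE 0.04, mt-Nd1) and 0.10 (SE 0.04, mt-Nd6). The ranges of the 2 times overlapped for all 7, beside 13.4% of all genes without overlap and lower and 13.7% without overlap and higher. Among the members 2, mt-Co1 and mt-Nd6, had an unadjusted p under 0.05 in edgeR's test. DESeq2 and limma-voom also called none of them.

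Between 12 and 24 hours, whose counts the rule for the members did not use, all 7 mRNAs fell. Earlier results of these libraries were known when the members were chosen, so the p-values are not independent of that choice. All 7 were called lower at 24 hours, beside 15.3% of the 11394 genes tested, and their ranges did not overlap, beside 38.1% of all genes. mt-Nd2 fell by 5.95 on the log2 scale (SE 0.13) and mt-Nd1 fell by 5.69 (SE 0.21), the lowest and second lowest values of the comparison. mt-Nd4 fell by 4.65 (SE 0.20), mt-Cytb fell by 4.20 (SE 0.20), mt-Nd5 fell by 3.96 (SE 0.08) and mt-Co1 fell by 3.44 (SE 0.19). mt-Nd6 fell by 2.82 (SE 0.05), the smallest change of the 7. The adjusted p in edgeR's test was between 6.64e-13 (mt-Nd6) and 2.71e-09 (mt-Co1). The median of the members was -4.20, beside 0.0039 for all genes tested.

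The members had some of the lowest values of the comparison. Of the 21 genes down to and including mt-Nd6, 7 were members, 4 were other mitochondrial genes and 10 were nuclear genes, of which the lowest had a log2 fold change of -3.998. A fall by 2 or more on the log2 scale was reached by 0.772% of all genes and by all 7 members.

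The libraries of time 0 chose the members by their high level, so the values of 24 hours against time 0 are given as a description only. All 7 members met the criteria for lower, beside 16.8% of the 11444 genes tested, and did not overlap, beside 38.0%, and nothing is read from these counts. The log2 fold changes were -5.91 (SE 0.13) for mt-Nd2, -5.69 (SE 0.21) for mt-Nd1, -4.61 (SE 0.20) for mt-Nd4 and -4.16 (SE 0.20) for mt-Cytb. They were -3.90 (SE 0.09) for mt-Nd5, -3.38 (SE 0.19) for mt-Co1 and -2.75 (SE 0.05) for mt-Nd6.

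**Figure D2:**
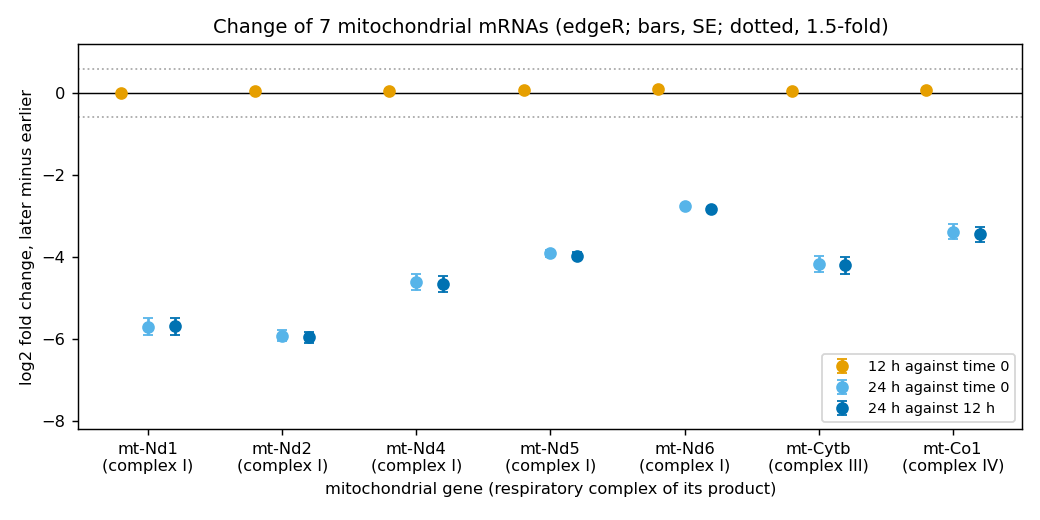
Log2 fold change of each of the 7 mitochondrial mRNAs (later minus earlier time) in 3 comparisons from edgeR, with bars for the SE and dotted lines at 1.5-fold. The points of 12 hours against time 0 lie at 0.01 to 0.10, and those of 24 hours lie between -2.75 and -5.95, lowest for mt-Nd2 and highest for mt-Nd6.

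The heavy-strand genes and mt-Nd6 were compared by ratios within each library, which do not depend on the scaling between libraries. As the strand setting is not known, the counts of mt-Nd6 may include reads of the opposite strand. The log2 ratio of mt-Nd6 to mt-Cytb counts was -2.14, -2.20 and -2.22 at time 0 and -2.15, -2.13 and -2.17 at 12 hours. At 24 hours it was -0.16, -0.86 and -1.09, so that mt-Nd6 went from 0.225 to 0.614 counts per mt-Cytb count. The 24-hour libraries lay above all others. The mean ratio was 1.45 higher at 24 than at 12 hours on the log2 scale, 1.48 higher than at time 0, and 0.04 higher at 12 hours than at time 0. An exact 2-sided permutation test of 24 against 12 hours gave p = 0.10, the smallest that 3 against 3 libraries allow, so that this design cannot pass a threshold of 0.05. The ratios at time 0 are a description, since those libraries chose the members.

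The same direction was seen with each of the other 5 heavy-strand genes as the denominator, given here without a test. Between 12 and 24 hours the difference in the mean log2 ratio (24 minus 12 hours) was 3.16 to mt-Nd2, 2.94 to mt-Nd1, 1.90 to mt-Nd4, 1.15 to mt-Nd5 and 0.68 to mt-Co1. In each case the 24-hour libraries did not overlap with those of 12 hours. The ratio to mt-Co1 was -3.20, -3.11 and -3.06 at 12 hours in ascending order, and -2.85, -2.52 and -1.95 at 24 hours.

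**Figure D3:**
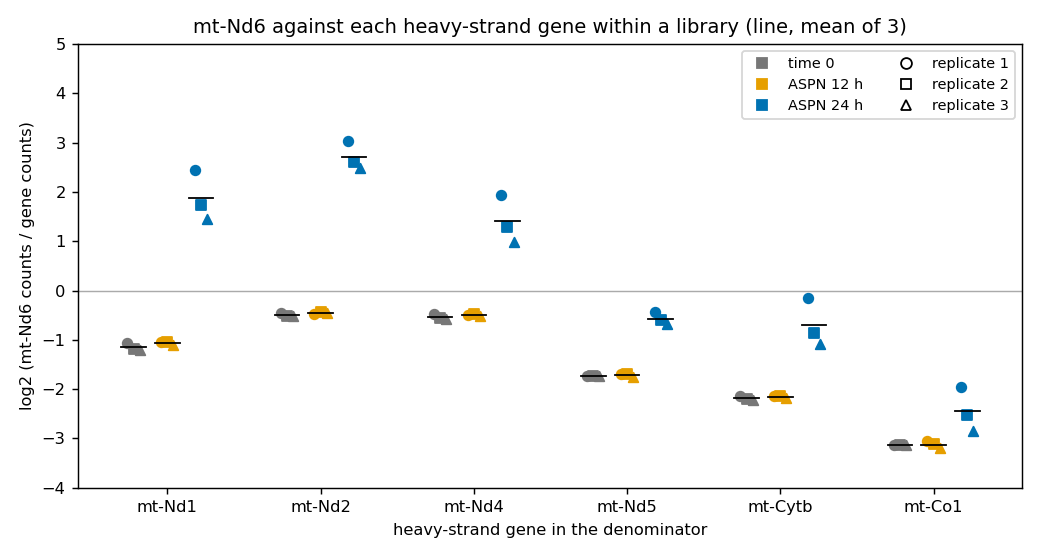
Log2 ratio of mt-Nd6 counts to the counts of each heavy-strand gene within each library, with 3 libraries per time (colors), replicate numbers as symbols and lines at the means. For every denominator the 24-hour libraries lie above the others, and replicate 1 is the highest of them (-0.16 for mt-Cytb, beside -0.86 and -1.09). The mt-Nd6 counts may include reads of the opposite strand, as the strand setting is not known.

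The ratios among the heavy-strand genes, also given without a test, differed between the times. Relative to mt-Cytb, the mean log2 ratio at 24 minus 12 hours was -1.72 for mt-Nd2, -1.497 for mt-Nd1, -0.45 for mt-Nd4 and 0.76 for mt-Co1, with no overlap between the times for these 4. For mt-Nd5 it was 0.30 and the libraries overlapped. The ratio of mt-Nd1 to mt-Nd2, neighbors near the start of the heavy-strand series, also overlapped between 12 and 24 hours, with means of 0.61 and 0.83.

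Per length, the order of the messages changed with the time. In all 6 libraries of time 0 and 12 hours the order of CPM per kilobase was mt-Co1, mt-Cytb, mt-Nd1, mt-Nd6, mt-Nd5, mt-Nd2 and mt-Nd4. In all 3 libraries of 24 hours it was mt-Co1, mt-Nd6, mt-Cytb, mt-Nd5, mt-Nd1, mt-Nd4 and mt-Nd2. At 12 hours mt-Co1 was at 6655 ± 131 CPM per kilobase, mt-Cytb at 4581 ± 254, mt-Nd1 at 2579 ± 102, mt-Nd6 at 2276 ± 147, mt-Nd5 at 2127 ± 86.7, mt-Nd2 at 1559 ± 112 and mt-Nd4 at 1205 ± 64.0 (SD, n = 3). The means ± SD of mt-Nd6 and mt-Nd5 overlapped, and those of the other neighbors did not. At 24 hours mt-Co1 was at 604 ± 211 CPM per kilobase, mt-Nd6 at 317 ± 16.9, mt-Cytb at 246 ± 86.4, mt-Nd5 at 135 ± 18.4, mt-Nd1 at 49.3 ± 18.3, mt-Nd4 at 47.3 ± 17.1 and mt-Nd2 at 24.8 ± 5.83. Here mt-Nd6 and mt-Cytb, mt-Nd1 and mt-Nd4, and mt-Nd4 and mt-Nd2 were neighbors whose means ± SD overlapped.

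Among the 15374 genes with a known length, mt-Co1 ranked first by CPM per kilobase in each library of time 0 and 12 hours, and mt-Cytb ranked 3. At 24 hours mt-Co1 ranked 79 to 134 over the 3 libraries, mt-Nd6 160 to 172 and mt-Cytb 169 to 297. mt-Nd5 ranked 306 to 385, mt-Nd1 710 to 1541, mt-Nd4 752 to 1561 and mt-Nd2 1587 to 2476. mt-Nd2, in the range of 17 to 21 at 12 hours, thus had the lowest rank of the 7 at 24 hours.

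The balance with the nuclear-encoded subunits of the same complexes was set on the same scale per length, with the median subunit of each list taken in each library. At 12 hours mt-Co1 was 58.6 times the median of 10 nuclear-encoded complex IV subunits, and mt-Cytb was 65.5 times the median of 9 complex III subunits. At 24 hours these ratios were 3.70 and 2.35. For complex I, with 7 nuclear-encoded core subunits, the ratio went from 55.8 to 0.712 for mt-Nd1, from 33.7 to 0.369 for mt-Nd2 and from 26.1 to 0.687 for mt-Nd4. It went from 46.1 to 2.04 for mt-Nd5 and from 49.2 to 4.82 for mt-Nd6. All 7 nuclear core subunits of complex I lay below every member at 12 hours, whereas at 24 hours 4 of them lay above mt-Nd1 and mt-Nd4, and 5 above mt-Nd2. For mt-Nd4 this depended on the measure. With all its counts divided by only its length not shared with nuclear transcripts, it was at 115.9 ± 41.8 CPM per kilobase at 24 hours. That value lay above the nuclear median of 65.8. The measure is described below and was chosen after the data were seen. It assumes that no reads from the shared stretches were counted, which is not known.

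**Figure D4:**
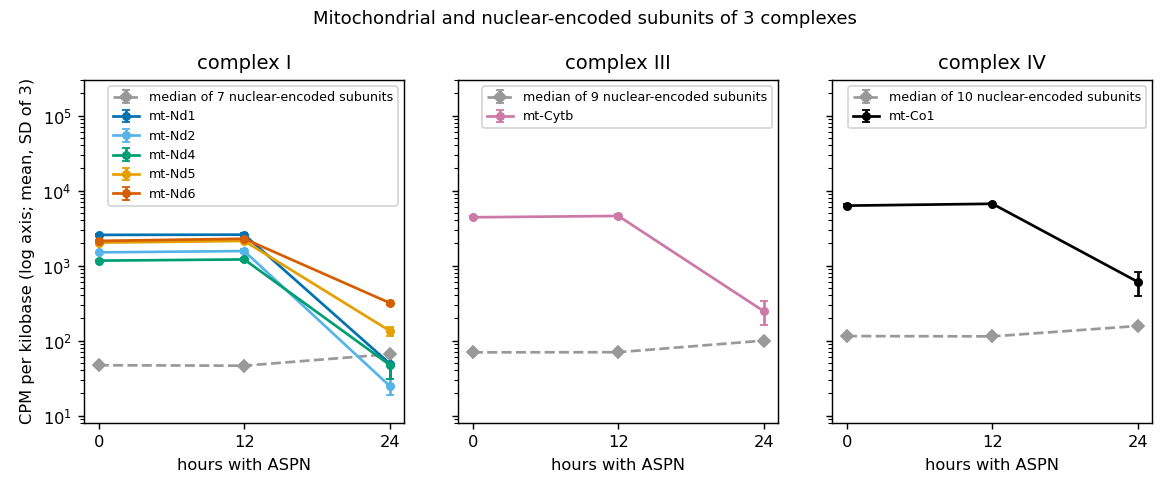
CPM per kilobase (log axis, mean and SD of 3 libraries) of the mitochondrial mRNAs of complexes I, III and IV by hours with ASPN, and of the median nuclear-encoded subunit of each complex (dashed). The mitochondrial mRNAs lie at 1162 or more at time 0 and 12 hours, and at 24 hours mt-Nd1, mt-Nd2 and mt-Nd4 lie below the nuclear median of 65.8. The values are per whole gene. With all its counts divided by only its length not shared with nuclear transcripts, mt-Nd4 would lie above that median, at 115.9. That value assumes that no reads from the shared stretches were counted, which is not known.

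None of the nuclear-encoded subunits of the lists was called lower, and some were called higher. At 24 against 12 hours 3 of 10 complex IV subunits were called higher and none lower, beside 10.4% of all genes called higher: Cox4i1 by 0.78 (SE 0.03), Cox8a by 0.77 (SE 0.03) and Cox6b1 by 0.68 (SE 0.04) on the log2 scale. The median of the list was 0.54. Of 9 complex III subunits 1, Uqcrh, was called higher (0.65, SE 0.04), a share near the 10.4% of all genes. When libraries were scaled by their total counts, the median of all genes moved to -0.22 and none of these 4 subunits passed the fold of 1.5, while all 7 members were called lower. At 24 hours against time 0 the counts called higher in the lists of complexes IV and III were likewise 3 and 1, beside 12.0% of all genes, and at 12 hours none was called in any list.

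In the list for copying and maintaining mitochondrial DNA, 2 of 17 genes were called higher at 24 against 12 hours, beside 10.4% of all genes, and 3 lower, beside 15.3%, shares near those of all genes. Called higher were Primpol (0.83, SE 0.08), a primase and polymerase that restarts stalled replication, and Tfb1m (0.69, SE 0.08), which methylates the ribosomal RNA. Called lower were Mterf1a (-1.23, SE 0.22), of the family of transcription terminators, Twnk (-1.06, SE 0.05), the replicative helicase, and Tefm (-0.65, SE 0.08), the elongation factor of POLRMT. The core transcription genes, named here for their role and after their values were seen, had log2 fold changes of -0.25 (SE 0.06) for Polrmt, -0.22 (SE 0.05) for Tfam and -0.46 (SE 0.07) for Tfb2m, all short of 1.5-fold. With total-count scaling 5 of the list were called lower and 1 higher.

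In the list for processing, stability and decay of mitochondrial RNA, 2 of 19 genes were called higher at 24 against 12 hours, a share near the 10.4% of all genes, and none lower. These were Mtpap (0.68, SE 0.05), the poly(A) polymerase, and Slirp (0.63, SE 0.16), which binds and stabilizes the mRNAs with LRPPRC. Neither passed the fold of 1.5 under total-count scaling. Against time 0, Mtpap alone was called at 24 hours.

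Of 8 tested regulators of mitochondrial biogenesis, 3 were called lower at 24 against 12 hours, beside 15.3% of all genes. They were Pprc1 (-1.51, SE 0.04) and Ppargc1a (-0.60, SE 0.07), coactivators of the PGC-1 family, and Myc (-1.15, SE 0.05). What part the MYC transgene of these cells has in the reads of Myc was not tested. Ppargc1a lay near the fold of 1.5, and the count was 2 with upper-quartile scaling, without replicate 2 of 12 hours and without replicate 3 of 24 hours. The same number was called lower against time 0. Histone messages, which lack a poly(A) tail and so depend on how poly(A) selection behaved, were few: the 6 in the table summed to 1.303 to 1.83 CPM at 12 hours and 0.760 to 1.29 CPM at 24 hours. The single one tested, Hist1h2ao, was called lower at -0.71 (SE 0.27, with an edgeR adjusted p of 0.0325). This call was lost without replicate 1 or 2 of 12 hours and without replicate 1 or 3 of 24 hours, where the count of histone messages called lower was 0.

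The other 6 mitochondrial genes had counts orders of magnitude below those of the members, and for 5 of them, all but mt-Atp8, most of the sequence is also found in annotated nuclear transcripts. At time 0 and 12 hours mt-Co2 had 164 to 230 counts, mt-Atp8 9 to 20, mt-Nd3 6 to 13 and mt-Nd4l 14 to 23. mt-Atp6 had 185 to 224 counts in 5 of these libraries and 3441 in replicate 3 of time 0, and mt-Co3 had 114 to 150 in 5 and 855 in replicate 2 of time 0. At 24 hours mt-Co2, mt-Co3 and mt-Atp6 had 6 to 21 counts and the other 3 had 0 to 5. The fall was thus in the same direction as for the members.

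Every 150-base window of the 13 genes, the length of 1 read, was looked for word for word in the annotated nuclear transcripts. Such copies held 99.4% of the windows of mt-Co2 and of mt-Atp6, 99.8% of those of mt-Co3, 97.0% of mt-Nd3 and 98.0% of mt-Nd4l. They held 59.2% of the windows of mt-Nd4 and 23.6% of those of mt-Co1, and none of those of mt-Nd1, mt-Nd2, mt-Nd5, mt-Nd6, mt-Cytb and mt-Atp8. Nuclear sequence outside annotated transcripts was not searched, so a copy there, also of mt-Atp8, would have been missed. The word-for-word copies are annotated pseudogenes that lie side by side on chromosome 1 (GRCm38), from Gm28439 (chr1:24611535-24612410, minus strand), the copy of the first part of mt-Nd4, to Gm29216 (chr1:24615706-24616197), that of the end of mt-Co1. How reads with several matches were counted is not given in the sources used here, and the part of these copies in the levels of mt-Nd4 and mt-Co1 was not tested. A measure chosen after the data were seen divided all counts of a gene by only its length outside such windows. By it mt-Nd4 was at 2950 ± 157 CPM per kilobase at 12 hours and 115.9 ± 41.8 at 24 hours. These values place it behind mt-Cytb at 12 hours and behind mt-Nd5 at 24 hours. Counts from the shared windows were not removed, so this order assumes that no reads from them were counted.

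**Figure D5:**
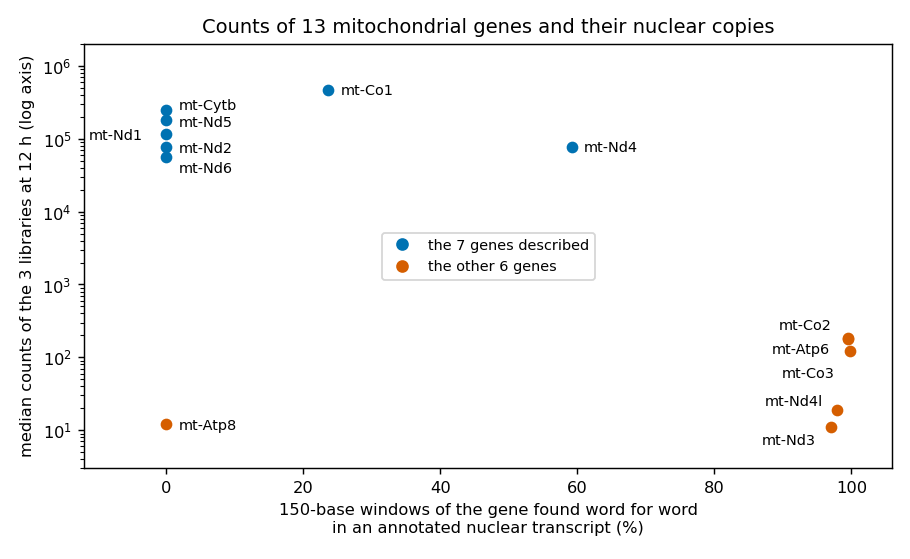
Share of the 150-base windows of each of the 13 mitochondrial genes that is found word for word in an annotated nuclear transcript (percent), against its median counts at 12 hours (log axis). The 7 genes described have at most 59.2% of their windows in such a copy, and of the 6 others mt-Atp8 has none and the remaining 5 have 97.0% or more.

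Of these 6 genes, mt-Atp6, a subunit of the ATP synthase, was called lower at 12 hours against time 0 (-2.46 with SE 0.75 and an edgeR adjusted p of 0.0471), and this call rested on a single library. Without replicate 3 of time 0 its log2 fold change was 0.10. mt-Co3, a subunit of complex IV, was at -1.54 (SE 0.54, with an edgeR adjusted p of 0.0888) and at 0.0047 without replicate 2 of time 0. At 24 against 12 hours all 5 that could be tested were called lower. The log2 fold changes were -2.58 for mt-Nd4l, -2.87 for mt-Co3, -3.37 for mt-Co2 and -3.98 for mt-Atp6. mt-Nd3 had 0 to 1 counts per library at 24 hours, so its fitted value of -4.67 is no bound on its fold, and it ranged from -6.54 to -4.19 when 1 library was left out.

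The nuclear genes whose log2 CPM followed that of the summed members most closely over the 9 libraries were Pdcd11 (Pearson r = 0.999), Mfsd5, Zfp629, Ubtf and Dlg5. They were on a far smaller scale, since Pdcd11 went from 115.7 ± 2.58 CPM at 12 hours to 58.4 ± 4.98 CPM at 24 hours. For mt-Nd6 alone they were Champ1 (1.000), Msl1, Fbxw7, Ubqln4 and Atxn7l3b. A correlation above 0.95 was shared by 1843 of 11260 nuclear genes for the summed members and by 1923 for mt-Nd6, as the 9 points fall into earlier and 24-hour libraries.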

How the data were processed

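RNA-Seq counts of 9 libraries of MyC-CaP cells were used (3 at time 0, 3 at 12 hours and 3 at 24 hours with ASPN). The authors prepared poly(A)-selected libraries, sequenced 150-base read pairs, trimmed them with Cutadapt 4.5, aligned them with STAR 2.7.11a to GRCm38.p6 and counted them with featureCounts 2.0.2. The deposited values are raw counts per gene for 15384 protein-coding genes, without normalization. Poly(A) selection means that a shorter tail and a lower level of a message cannot be told apart.

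Genes were filtered with filterByExpr, scaled by TMM and tested with edgeR 4.0.16 (R 4.3.3, quasi-likelihood, Benjamini-Hochberg over all tested genes), on the libraries of the 2 times compared. Calls needed 1.5-fold or more with an adjusted p within 0.05. CPM are TMM scaled over 9 libraries. Errors are SD, or SE of the log2 fold change. Intervals over 3 libraries per time measure only the spread between libraries, which may be technical. Code was tested on simulated data. DESeq2 1.42.0, limma-voom (limma 3.58.1), other scalings, filters and corrections were alternatives. Sequences came from GENCODE M21 transcripts (GRCm38), in which 15374 genes were found by identifier. Copies were searched with BLAST+ 2.17.0 among the annotated transcripts only, not in the whole genome.

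The members, lists and tests were chosen with earlier results of these data known. A planned permutation test of the mt-Nd6 to mt-Cytb ratio over the 3 times is not reported, since the time 0 libraries chose the members. Named genes were all members, the other mitochondrial genes, at most 3 called genes per direction of each list, and the 5 most alike nuclear genes. Same-numbered libraries did not deviate together (mean correlation of deviations -0.01, -0.06 and 0.02 in the 3 comparisons), so the main fits have no block. Some genes of the lists are not reported here.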

Additional observations from a re-analysis of the deposited data

How the results depend on the processing

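All 7 members were called lower at 24 against 12 hours under each alternative run. Comparisons with time 0, whose libraries chose the members, are a description. Over the alternatives mt-Nd2 ranged from -6.27 to -5.79, mt-Co1 from -3.73 to -3.21 and mt-Nd6 from -3.20 to -2.79 at 24 against 12 hours. The main results were counts of called genes, shares of counts and ratio differences. Of their 216 alternatives, 206 were rated unchanged, 8 moved and 2 weaker. For counts the rating was one of size, not of a threshold. Leaving out 1 library gave 148 to 198 called genes at 12 hours, rated unchanged beside 182. The 2 weaker ones were ratio differences with the replicate block. Nothing is read from the ratings of ratio differences, since their exact test between 2 times cannot pass 0.05 here. With the adjusted p alone, 1178, 8119 and 8124 genes were called in place of 182, 3298 and 2924 at 12 hours, at 24 hours and at 24 against 12 hours, and 3, 52 and 54 genes of the 7 lists in place of 0, 15 and 16. With total-count scaling 10 list genes were called at 24 against 12 hours. Counts outside the mitochondrial genes as denominator gave a members' share of 2.73% in place of 2.65% at time 0.

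At 12 hours against time 0 the small value of mt-Nd1 changed sign with total counts (-0.0063), with the length and GC correction (-0.0101), and with this correction and the replicate block (-0.01). The cause was not tested. Leaving out 1 library gave -0.0132 to 0.0437 for mt-Nd1, -0.1459 to 0.0296 for mt-Co2, -2.95 to 0.10 for mt-Atp6, -1.96 to 0.0047 for mt-Co3 and -0.106 to 0.2508 for mt-Nd4l. The 24-hour ratio difference of mt-Nd6 to mt-Cytb was 1.17 to 1.64 against 12 hours without 1 library.

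The replicate numbers did not pair the libraries. With the number as a block all 7 members were called lower at 24 against 12 hours. The mean ratio differences within a number, 1.45 and 1.48, equal the unpaired ones by arithmetic, and the exact p for 24 against 12 hours was 0.25, the smallest that 3 pairs allow.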
